A study of Mus musculus with 2 samples.

Results

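Hemoglobin and erythroid genes were examined in prefrontal cortex (PFC) RNA of male C57Bl/6 N sea mice, 1 array for the C group and 1 for the CMS group. The 9 genes were Hba-a1, Hba-a2, Hbb-b1, Hbb-b2, Hbb-bs, Hbb-bt, Alas2, Slc4a1 and Epb42, out of 20658 genes with a symbol on the arrays. They were chosen on earlier results from the same arrays, in which erythroid markers as a list had been higher in the CMS group, so their ratios are given as a description and without a test. Probes were matched to genes by RefSeq accession. Of the 9 genes, 8 had 1 probe each, and no probe was matched for Hbb-b1. The probes of 7 genes had a signal well above background on both arrays. Those 7 probes were all measured higher in the CMS group, from 1.30-fold for Hbb-bt to 1.54-fold for Slc4a1. The probe named for Hbb-b2 is counted among them, although that gene belongs to other mouse strains, as described below.

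The CMS group was housed individually and exposed for 4 weeks to unpredictable mild stressors such as water deprivation, a wet or tilted cage, restraint, forced swimming and electric shocks. The C group received ordinary care in shared cages, so stress and single housing cannot be told apart. Mice were 9 to 10 weeks old at the start, and no transgene or drug is named for either group. Each array was hybridized with RNA pooled from 7 mice according to the series description, whereas the methods speak of 10 mice a group for the arrays and PCR. The brains were taken after decapitation on the day after the last stressor, and perfusion is not mentioned.

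Hemoglobin, the oxygen carrier of red blood cells, is built from alpha chains and beta chains, each holding a heme group. The alpha chains of the adult mouse are encoded by Hba-a1 and Hba-a2, and the beta chains by a pair of genes that depends on the strain. Strains of the C57BL/6 family carry Hbb-bs and Hbb-bt, whereas Hbb-b1 and Hbb-b2 belong to a different form of the locus found in other strains. Mature red cells of mammals have no nucleus, and young ones still carry globin mRNA, which is therefore found in RNA from tissue that contains blood. Globin mRNA has also been described at low levels in neurons and glia. Alas2 encodes the erythroid form of the enzyme that starts heme synthesis, Slc4a1 the anion exchanger of the red cell membrane (band 3), and Epb42 the membrane protein (band 4.2) that joins band 3 to the cell skeleton.

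The promoters of 4 members, on 3 chromosomes, are shown as a description of these genes and not as an account of their ratios. Each is the stretch of 150 bases before the annotated start in RefSeq, build GRCm38.p6, and 6 of the 9 members were matched to that table. Capitals mark matches on either strand to 4 motifs. These are GATA, the core of the site read by the GATA factors, the box CACCC, which Klf1 and related factors read, the box CCAAT, and the TATA-like motif ATATAA.
Hba-a1 (chr11:32283522-32283671, plus strand): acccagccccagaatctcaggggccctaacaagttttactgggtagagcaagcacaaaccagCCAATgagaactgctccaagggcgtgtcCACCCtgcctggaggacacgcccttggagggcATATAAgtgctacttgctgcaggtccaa
Hbb-bs (chr7:103827929-103828078, minus strand): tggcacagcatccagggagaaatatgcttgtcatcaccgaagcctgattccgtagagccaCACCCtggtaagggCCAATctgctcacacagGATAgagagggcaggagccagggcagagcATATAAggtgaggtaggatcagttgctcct
Hbb-bt (chr7:103813924-103814073, minus strand): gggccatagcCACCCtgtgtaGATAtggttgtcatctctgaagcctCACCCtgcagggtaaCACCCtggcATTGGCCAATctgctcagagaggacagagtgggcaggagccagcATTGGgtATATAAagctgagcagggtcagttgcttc
Alas2 (chrX:150547267-150547416, plus strand): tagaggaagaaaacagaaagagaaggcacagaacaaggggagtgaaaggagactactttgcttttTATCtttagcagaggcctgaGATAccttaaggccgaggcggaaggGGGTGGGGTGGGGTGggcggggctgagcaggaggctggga

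The promoter of Hba-a2 shares a run of 147 bases with that of Hba-a1, so it is not repeated here. The 3 globin promoters shown each hold the TATA-like motif and at least 1 CCAAT box and CACCC box, and Hbb-bt holds 3 of each box. The GATA core was found at 1 place each in Hbb-bs and Hbb-bt, and not in Hba-a1 or Hba-a2. The Alas2 promoter holds the GATA core at 2 places and the CACCC box at 3, and neither of the other motifs. Across all 32851 promoters of the same length, 5.35% held the TATA-like motif, 24.5% the CCAAT box, 37.4% the CACCC box and 35.7% the GATA core. The 150 bases before the start of Epb42 held none of the 4 motifs. These are matches of letters and say nothing about binding in these samples.

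Both arrays lay on 1 slide and no spot was saturated, and 65.2% of the spots for C and 65.9% for CMS were well above background. Signals were scaled to a mean of 2500 on each array. Markers of cortical neurons were well above background on both arrays for all 10 listed genes, and their summed scaled signal was 229679 in the C and 227035 in the CMS group. The replicate error between mice is unknown, because each group was 1 pool on 1 array. The error at hand is technical. Log2 ratios of repeat spots of 1 probe had a standard deviation (SD) of 0.13, over 342 probes, and the scanner software attached its own error to each signal.

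The alpha globin probes were both higher in the CMS group. The Hba-a1 probe (NM_008218) gave a scaled signal of 19004 ± 1900 (software error, 1 array) in the C and 25167 ± 2517 in the CMS group. The log2 ratio of CMS over C was 0.41 (fold change, 1.32). The Hba-a2 probe (NM_001083955) gave a scaled signal of 85834 ± 8583 in the C and 113926 ± 11393 in the CMS group. The log2 ratio of CMS over C was also 0.41 (fold change, 1.33). These genes encode the same kind of chain from near-identical transcripts on chromosome 11. Their probes may read each other's transcripts, so they are not independent measurements. In pooled tissue RNA, more red cells and more globin mRNA per cell cannot be told apart.

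The beta globin probes gave ratios of the same size. Hbb-bs (NM_001201391) went from 1919 ± 192 (scaled signal) in the C group to 2663 ± 266 in the CMS group, which is a log2 ratio of 0.47 and a fold change of 1.39. Hbb-bt (NM_008220) went from 16609 ± 1661 to 21641 ± 2164, a log2 ratio of 0.38 and a fold change of 1.30. The probes of both genes of the C57BL/6 form of the locus were thus measured higher in the CMS group. Whether these probes read each other's transcripts was not tested, so they are not taken as independent measurements. Hbb-b2 (NM_016956) gave a scaled signal of 5383 ± 538 in the C and 7182 ± 718 in the CMS group, which is a log2 ratio of 0.42 and a fold change of 1.33. Hbb-b2 is a gene of the other form of the locus, and yet its probe was well above background on both arrays. Whether this probe reads transcripts of Hbb-bs or Hbb-bt was not tested, since the probe sequences were not used here. Its signal is therefore not taken as a measure of Hbb-b2 transcripts.

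The 5 globin probes differed little in their ratios. The log2 ratios ran from 0.38 to 0.47, a span of 0.09, which is smaller than the SD between spots of 1 probe. No order among the globin genes can be drawn from them. The plot of signals by gene shows each pair of signals on a log axis.

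**Figure D1:**
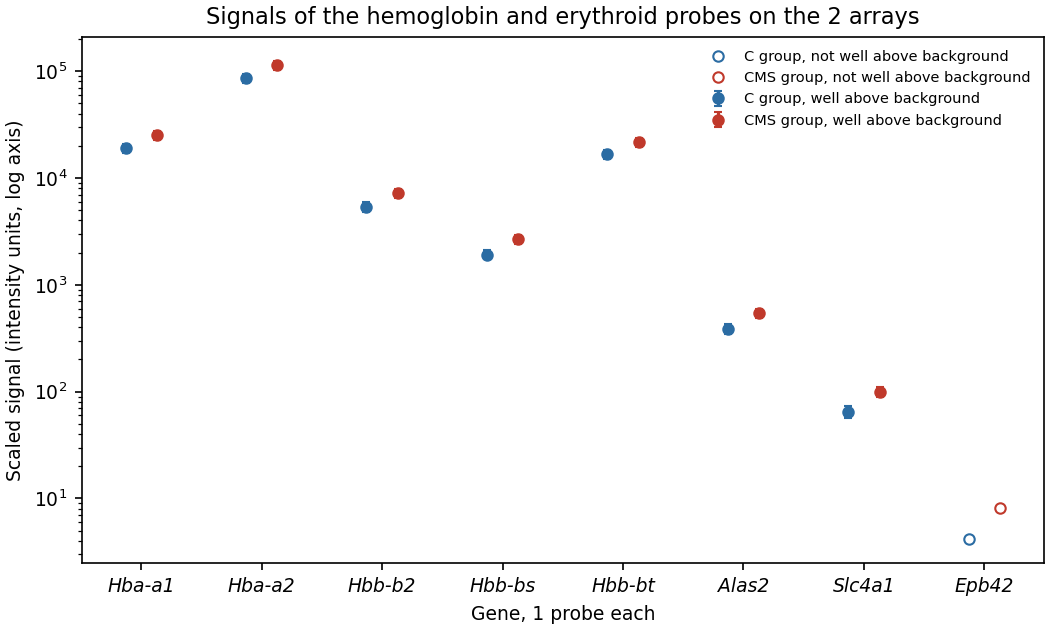
Scaled signal (intensity units, log axis) of the 8 genes with a probe, with the C group in blue and the CMS group in red. Bars are the scanner software's error of each signal, and open circles mark signals not well above background. The CMS signal lies above the C signal for each of the 7 probes well above background on both arrays. The fold runs from 1.30 for Hbb-bt to 1.54 for Slc4a1.

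The other members with a ratio, Alas2 and Slc4a1, had ratios above the globin range. For Alas2 the distance to the highest globin, Hbb-bs at 0.47, was smaller than 1 spot SD. Alas2 (NM_009653), whose product sets the pace of heme synthesis in red cell precursors, gave a scaled signal of 388 ± 39.0 in the C and 543 ± 54.5 in the CMS group. The log2 ratio of CMS over C was 0.49 (fold change, 1.40). Slc4a1 (NM_011403) went from 64.9 ± 7.89 in the C group to 100.1 ± 11.0 in the CMS group, which is a log2 ratio of 0.62 and a fold change of 1.54. The Slc4a1 ratio exceeded the globin median of 0.41 by 0.22. For a difference between 2 single probes the spot SD gives an error of 0.19, and the error of a difference from a median was not computed. The difference was smaller than 2 such single-probe errors, and the software error of the Slc4a1 log2 ratio alone was 0.24. The Slc4a1 probe was also the dimmest of the 7, and its log2 ratio was 0.37 when normexp background correction with an offset of 50 was followed by quantile normalization. Alas2 then had 0.43, and both lay within the globin range under that processing, from 0.33 for Hbb-bt to 0.46 for Hbb-bs. No order between these genes and the globins can be drawn.

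Epb42 (NM_013513) had no ratio. Its scaled signal was 4.18 in the C and 8.21 in the CMS group, and the lowest signals well above background were 17.8 and 17.6. The transcript was not detectable at the sensitivity of these arrays, which does not show that it was absent.

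Taken over the probes of the 7 measured members, the median log2 ratio was 0.42, a fold change of 1.33. All 7 were higher in the CMS group. The median is the value of the Hbb-b2 probe. The median over all 37377 probes with a ratio was -0.03. All 7 exceeded 2 spot SDs, which is a log2 ratio of 0.27 or a fold change of 1.20. The same limit was passed by 10.3% of all probes, and by 0.988% of the 11033 probes with a scaled signal of at least 1000 on both arrays. Alas2 and Slc4a1 lay below that signal. Because the members were chosen on this contrast, nothing is read from the difference between these shares. None of the 7 changed more than 2-fold, the threshold used in the study, which 1.82% of all probes passed upwards and 0.581% downwards.

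Measured against the error that the scanner software gives each signal, the ratios were less clear. That error was close to 10% of the signal for each globin probe, and 12.1% for Slc4a1 in the C group. It gives the log2 ratios an error of 0.20 to 0.24. All 7 ratios exceeded this error, and 5 of 7 were more than 2 times as large. Hba-a1 and Hbb-bt, at 1.99 and 1.87 times, did not. Around each member on the array, the median log2 ratio of the spots within 10 rows and 10 columns was between -0.06 and -0.01.

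**Figure D2:**
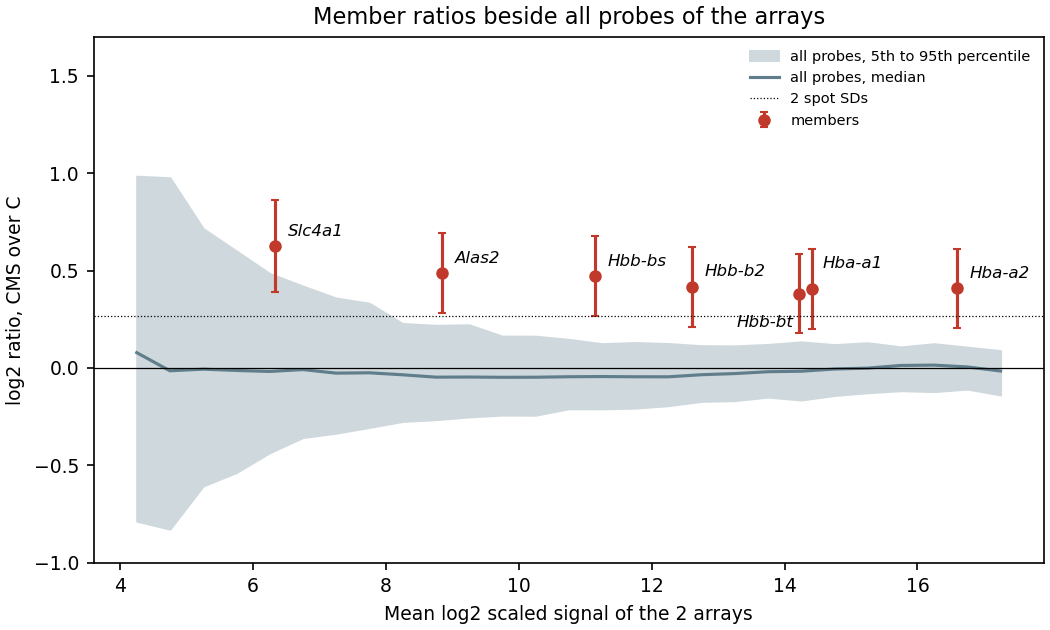
Log2 ratio of CMS over C against the mean log2 scaled signal of both arrays, with the 7 members in red, their software error as bars, and the 5th to 95th percentile of all probes in gray. The gray band narrows as signals grow, and the members lie above it, from 0.38 for Hbb-bt to 0.62 for the dim Slc4a1.

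The spread of all probes depended on brightness, so each member was also set beside probes within 1 log2 unit in all, centered on its own mean signal. Around Hba-a2 the 5th to 95th percentile of the log2 ratio ran from -0.12 to 0.12 over 213 probes. Around Alas2 it ran from -0.26 to 0.23 over 3908 probes. Around Slc4a1 it was wider, from -0.42 to 0.50 over 4833 probes. Between 0.469% (around Hba-a2) and 3.31% (around Slc4a1) of such probes had a higher ratio than the member. These shares describe where the members lie, since their ratios were the basis of their choice. The limit of 2 spot SDs was passed by 0.939% of the probes around Hba-a2, 3.53% around Alas2 and 14.0% around Slc4a1.

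The size of the members' ratios depended on whether the arrays were brought to 1 scale. Before scaling, processed intensities averaged 2946 for C and 2611 for CMS, and scaling to a common mean added 0.17 to every log2 ratio. Even before scaling, the intensity was higher in the CMS group for each of the 7 members. For Hba-a2 it was 100572 in the C and 118362 in the CMS group. For Slc4a1 it was 76.1 and 104.0. With no scaling the members had a median log2 ratio of 0.24, and 3 of 7 exceeded 2 spot SDs, namely Hbb-bs, Alas2 and Slc4a1. The median of all probes was then -0.20, and the members lay 0.45 above it with and without scaling. The gene lists described next were shifted with the rest, so the sign of a list median near 0 depends on the scaling.

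**Figure D3:**
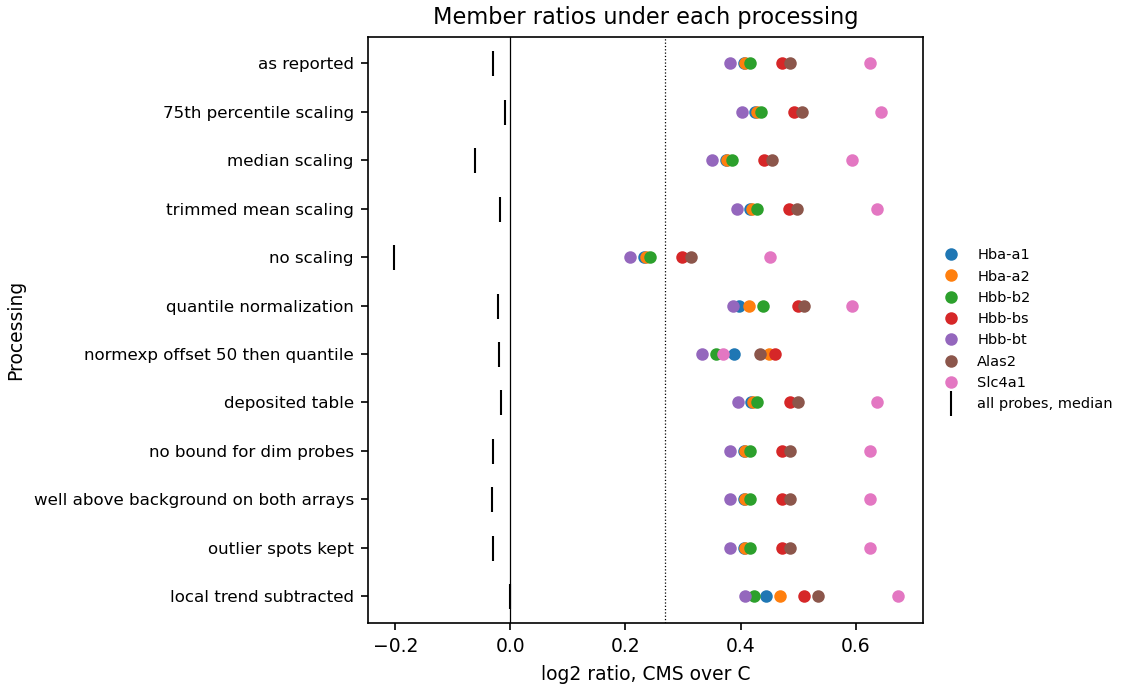
Log2 ratio of CMS over C of the 7 members (colored points) and the median of all probes (black ticks) under each processing tried, with a dotted line at 2 spot SDs. The members and the median of all probes shift together, and without scaling 4 of the 7 members fall below the line.

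Other genes of the red cell program were described from lists, beside the share of all 16268 genes with a symbol and a ratio that passed 2 spot SDs, which was 7.73% upwards and 7.87% downwards. Of the genes for heme synthesis and its transport, all 12 were well above background on both arrays and 0 passed the limit in either direction. Their median log2 ratio was -0.00. The transporter Abcb6 had the lowest log2 ratio, at -0.12. Alas1, the form of the first enzyme used in all tissues, gave a scaled signal of 10828 in the C and 10817 in the CMS group. Its log2 ratio was -0.00, beside 0.49 for the erythroid form Alas2.

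Of the 17 genes for the red cell membrane and its skeleton, 14 had a ratio, with a median of 0.01. Those past the limit were 2, both higher and both not well above background in the C group, so that their folds are bounds. Among them Rhd, the Rh blood group protein, was at least 1.52-fold higher. Its CMS signal was 27.0, where the lowest signal well above background was 17.6. Among those well above background on both arrays, the log2 ratio ran from -0.19 for Sptb, a beta spectrin also used in brain, to 0.11 for Ermap. Rhag and Kel, which are markers of the red cell surface, did not stand well above background on either array.

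The erythroid transcription factors and receptors had 8 genes with a ratio, a median log2 ratio of -0.07, and 0 past the limit in either direction. The highest was that of Zfpm1, a partner of the GATA factors, at 0.03, and the lowest that of Ldb1, at -0.22. Gata1, Klf1 and Nfe2, the factors most particular to red cell precursors, did not stand well above background on either array. Of the other red cell genes, 10 had a ratio, with a median of 0.01, and 1 passed the limit. This was Erfe, a hormone of red cell precursors, at least 1.31-fold higher and not well above background in the C group. Its log2 ratio of 0.39 lay below 0.98, the 95th percentile of all probes with a mean log2 signal of 4 to 4.5. The log2 ratio of Bpgm, which makes the phosphate that loosens oxygen from hemoglobin, was -0.14, the lowest of this list, and that of catalase (Cat) 0.16, the highest among those well above background on both arrays.

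Globins outside the adult red cell gave ratios in both directions. Of 5 with a ratio, 1 was higher and 1 lower by more than 2 spot SDs, and the median log2 ratio was -0.08. Hbb-bh1, an embryonic beta globin, gave a scaled signal of 56.9 in the C and 42.5 in the CMS group, or a log2 ratio of -0.42. This lay within the 5th to 95th percentile, -0.54 to 0.60, of all probes with a mean log2 signal of 5.5 to 6. Hbq1a, a theta globin beside the alpha genes, was at least 1.33-fold higher and not well above background in the C group. Its log2 ratio of 0.41 also lay within that spread of dim probes, -0.79 to 0.98 for a mean log2 signal of 4 to 4.5. The partner of Hbq1a, Hbq1b, had a log2 ratio of -0.24. Cygb, a globin of many tissues, had -0.06, and Ngb, the globin of neurons, had -0.08. The embryonic Hba-x, Hbb-y and Hbb-bh2 and the muscle globin Mb did not stand well above background on either array.

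The genes that clear free hemoglobin and heme included the largest ratios among the red cell lists. Haptoglobin (Hp), which binds hemoglobin in plasma, gave a scaled signal of 645 in the C and 4871 in the CMS group, or a log2 ratio of 2.92. Hemopexin (Hpx), which binds heme in plasma, went from 316.5 to 2456, a log2 ratio of 2.96. Both are plasma proteins made chiefly in the liver, and they were the 2 of 9 genes in this list past the limit. The others stayed within it. Heme oxygenase 1 (Hmox1), which breaks down heme, had a log2 ratio of -0.14, ferritin heavy chain (Fth1) 0.05 and the iron exporter Slc40a1 0.07. Cd163, the receptor of hemoglobin bound to haptoglobin, was not well above background on either array.

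Markers of other cells that tissue RNA could hold were set beside the members. All 13 hepatocyte markers were higher by more than 2 spot SDs, 12 of them more than 2-fold, with a median log2 ratio of 3.23 and a summed scaled signal of 5538 in the C and 50920 in the CMS group. Tat was the lowest of them, at 0.74, and Pck1 the highest, at 3.57. Of 9 neutrophil markers with a ratio, 6 were higher and 1 lower, and the median was 0.58. Among the 6, Ngp and Ltf were not well above background in the C group, so that their folds, at least 1.60 and at least 2.03, are bounds. Of the markers well above background on both arrays, S100a9, a subunit of calprotectin, had the highest log2 ratio, at 1.18, and Elane the lowest, at -0.29. The summed signal of the 9 was 148208 in the C and 146607 in the CMS group, of which Csf3r alone made up 144463 and 142620.

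Of 7 platelet markers with a ratio, 3 were higher and none lower, with a median of 0.08. Treml1 had a log2 ratio of 0.55. Gp5 and Ppbp, at least 2.03-fold and at least 1.97-fold higher, were not well above background in the C group. Clec1b had the lowest log2 ratio, at -0.20, Pf4, the platelet chemokine, had -0.19, and the summed signal of the 7 was 1162 in the C and 1152 in the CMS group. The B cell and T cell lists, with 3 and 2 genes measured, had 0 past the limit, and ran from -0.08 for Cd79a to 0.13 for Cd79b and from -0.19 for Lck to 0.10 for Cd3e. Summed over its measured genes, the B cell list had a signal of 86.7 for C and 90.0 for CMS. The T cell list had 1718 and 1755, of which Cd3e alone made up 1284 and 1375. Ms4a1, Fcrla, Blk, Pax5, Cd3d, Cd3g, Cd8a, Cd8b1 and Cd2 did not stand well above background on either array. The same held for the platelet markers Itga2b, Gp1ba and Gp6 and the neutrophil markers Retnlg and Cxcr2.

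Markers of brain endothelium, the vessel wall, were nearly level. Of 9 genes, 0 passed the limit, the median log2 ratio was -0.05, and the summed signal was 19278 in the C and 18944 in the CMS group. Cldn5, a tight junction protein, had the highest log2 ratio, at 0.19, and the transporter Abcb1a the lowest, at -0.18. Microglia markers had a median of 0.06, from -0.02 for Aif1 to 0.16 for Cx3cr1. Astrocyte markers had 0.03, from -0.30 for Gfap to 0.06 for S100b. Oligodendrocyte markers had -0.15, from -0.34 for Mobp to 0.11 for Mbp. Gfap and Mobp were each lower by more than 2 spot SDs, the only 1 in its list past the limit. Cortical neuron markers had 0.01, from -0.18 for Gad1 to 0.20 for Slc17a7. In the microglia and cortical neuron lists 0 passed the limit. The part that hepatocyte, neutrophil or platelet RNA had in the members' ratios was not tested.

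**Figure D4:**
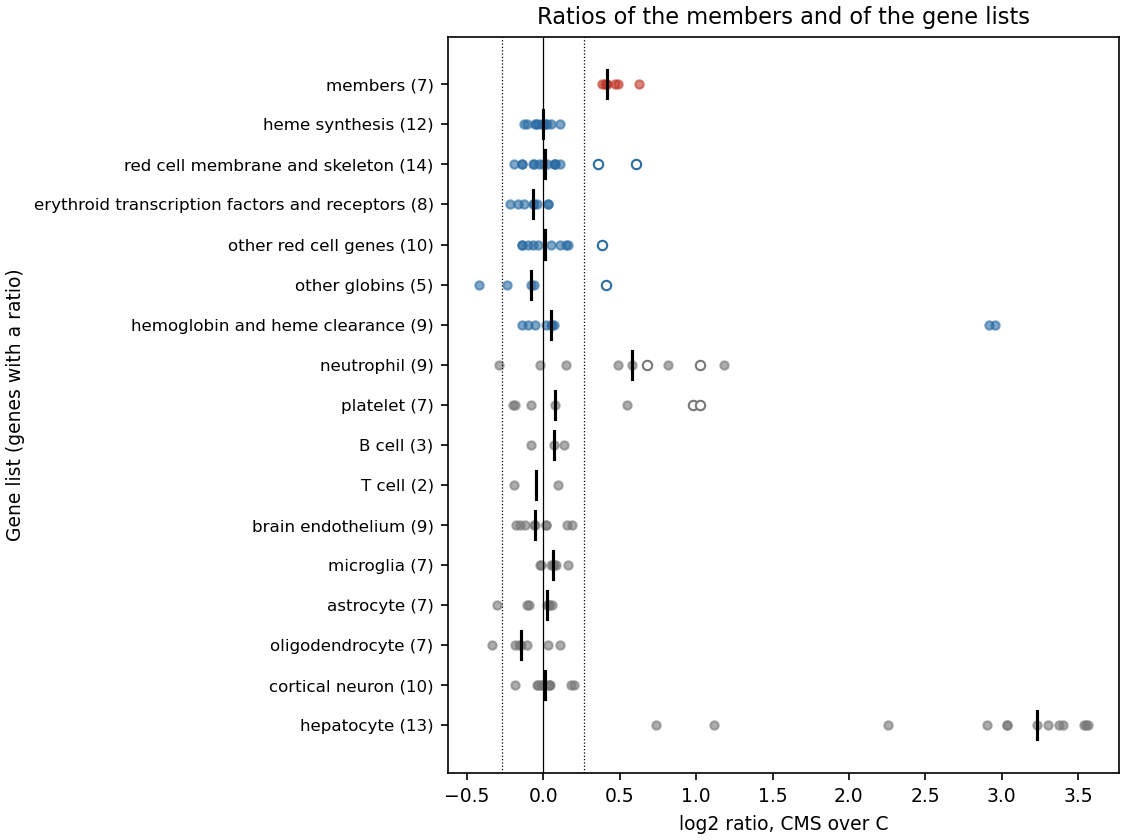
Log2 ratio of CMS over C of each gene with a ratio in the members (red), in 6 lists of globin and red cell genes (blue) and in 10 lists of cell type markers (gray). Open circles are lower bounds, where the C signal was not well above background, black bars are medians and dotted lines 2 spot SDs. The members' median of 0.42 lies between those of the platelet list, 0.08, and the neutrophil list, 0.58. The endothelium list has a median of -0.05 and the hepatocyte list 3.23.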

How the data were processed

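Total RNA was labeled with Cy3 and hybridized to Agilent SurePrint G3 Mouse arrays, 1 per group. The authors deposited Agilent Feature Extraction 10.10.1.1 files with processed signal intensities, background-subtracted and spatially detrended but not scaled between arrays, and a table in which each array's intensities were multiplied by 1 factor. The deposited spot flags of 0 or 1 (well above background, saturated, outlier) were used as given. The array design names the build mm9.

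Control spots and spots marked as outliers (130 for C, 133 for CMS) were removed, spots of 1 probe were averaged, and arrays were scaled to a mean of 2500. A probe well above background on 1 array but not the other was compared with its own signal there or, if higher, the lowest one well above background on that array, which gives a bound. Accessions without versions were named through the RefSeq table of GRCm38.p6, which named 27233 of 55674 probes. For listed genes with several probes, the brightest by mean log2 signal was taken. The lists' genes that are named are the highest and the lowest of each list among those well above background on both arrays, and others were named after their values were seen. The values of some listed genes are not reported here.

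With 1 array per group no test was possible, and the number of arrays limits the precision. Members, lists and limits were chosen with earlier results of these data known. Alternatives in scaling, normalization, background correction, bounds, outlier spots, probe summary and local trend were computed. The 2-fold call was tested on simulated data. Python 3.11.15, numpy 2.4.6, pandas 2.3.3, matplotlib 3.10.9, R 4.3.3 and the limma package 3.58.1 were used. The behavioral, protein, serum and PCR data were not analysed here.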

Additional observations from a re-analysis of the deposited data

How the results depend on the processing

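No paired analysis was possible because each group had 1 array, and for the same reason no array could be left out. The slide, shared by both arrays, cannot act as a block. The members' median log2 ratio of 0.42 ran from 0.24 with no scaling to 0.47 with the local trend subtracted, and all 7 members were above 0 under each alternative. The count of members above 2 spot SDs, 7, was 3 with no scaling and 7 under each of the others. The count changed more than 2-fold was 0 throughout. Of the single members' values, 69 stayed within 1 spot SD and 8 moved, namely all 7 with no scaling, by construction, and Slc4a1 under normexp (offset 50) combined with quantile normalization. Of the list medians, 157 stayed and 19 moved, 16 of them with no scaling. The others were the neutrophil median, 0.58, which was 0.32 under that same combination, the hepatocyte median, 3.23, which was 2.76 under it, and the platelet median, 0.08, which was -0.08 over probes well above background on both arrays. The share of all probes above 2 spot SDs, 10.3%, was 5.62% with no scaling and 4.67% under normexp with quantile normalization. Quantile normalization alone moved none of the member values or list medians by over 1 spot SD, and the offset was not varied. The scanner files hold median spot intensities, so normexp used these. Signal over background limits Epb42 and, among the erythroid factors and receptors, Gata1, Klf1 and Nfe2.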
